A study of Homo sapiens with 6 samples.

Results

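Transcripts of 50 genes of the NRF2 antioxidant programme were followed in A549 cells, a human lung adenocarcinoma line, by RNA sequencing. The genes were taken by symbol from a fixed list of NRF2 and KEAP1, glutathione, thioredoxin, aldo-keto reductase, pentose phosphate, peroxide-removing, export and conjugation genes. All 50 were found among the 19470 symbols of the count table, and 49 had enough counts to be tested. The study compared 2 groups of 3 libraries each. The dormant group, tagged SF, was A549 cells under a treatment that induces dormancy, and the activated group, tagged OC, was A549 cells grown with conditioned medium of osteoclasts, which resorb bone. All 6 libraries came from this single line, whose genotype the labels give as WT. The way dormancy was brought about, the time of exposure and any difference in base medium are not stated in the labels, and effects of the medium and of activation cannot be told apart. The labels do not say whether replicates were separate cultures, and the spread behind the p-values is that of these samples alone and may be technical.

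NRF2, the protein of NFE2L2, is a transcription factor that switches on detoxifying and reducing enzymes through antioxidant response elements. Its adaptor KEAP1 hands it to the proteasome until oxidants or electrophiles block that transfer. A549 is known to carry a damaging KEAP1 mutation, so NRF2 is held in an active state and its target transcripts are abundant in this line. The enzymes meet at NADPH. The pentose phosphate pathway makes it, and glutathione reductase and thioredoxin reductase spend it to keep glutathione and thioredoxin reduced, which in turn feed peroxidases, transferases and peroxiredoxins.

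Libraries held 34128471 to 36667725 counts. Replicates of a group differed beyond sampling noise (chi-square over its degrees of freedom 4.87 to 22.5), and each was counted as 1 sample. Activated replicate 1 stood apart for these genes. It was the highest of the activated libraries for 34 of the 49 tested members (69.4%), against 36.4% of all 13336 genes tested. Calls that change without this library are given with both values.

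The antioxidant genes moved in both directions between the states. NFE2L2, its classical targets OSGIN1, GCLC, TXNRD1, NQO1 and SRXN1, and the pentose phosphate enzyme TKT were lower in activated cells. AKR1B1, GPX1, GPX3, most peroxiredoxins, CAT, TALDO1 and PGD were higher, and of these PRDX1, TALDO1 and PGD are classical NRF2 targets too. Among the 22 members that are classical targets, 9 were higher and 9 lower. In bulk RNA a lower level in every cell and fewer cells with a high level cannot be told apart. In edgeR's quasi-likelihood test at an adjusted p of 0.05, 25 of 49 members (51%) were higher and 16 (32.7%) were lower, while 8 did not pass. Over all genes tested 73.7% were called, 36.5% as higher and 37.2% as lower. At a fold of at least 2, 5 members (AKR1B1, GPX1, GPX3, GSTM3 and MGST2) were higher against 11.2% of all genes, and 3 (NFE2L2, GCLC and OSGIN1) were lower against 11% of all genes. The median log2 fold change was 0.16 over the members and -0.02 over all genes. When libraries were scaled by total counts, which moved the median of all genes by -0.14, 21 members were higher and 20 lower. Without activated replicate 1, 25 were higher and 19 lower. The lowest count of a tested member in any library was 46, for GPX3, so each of the 49 was measured in both groups.

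**Figure D1:**
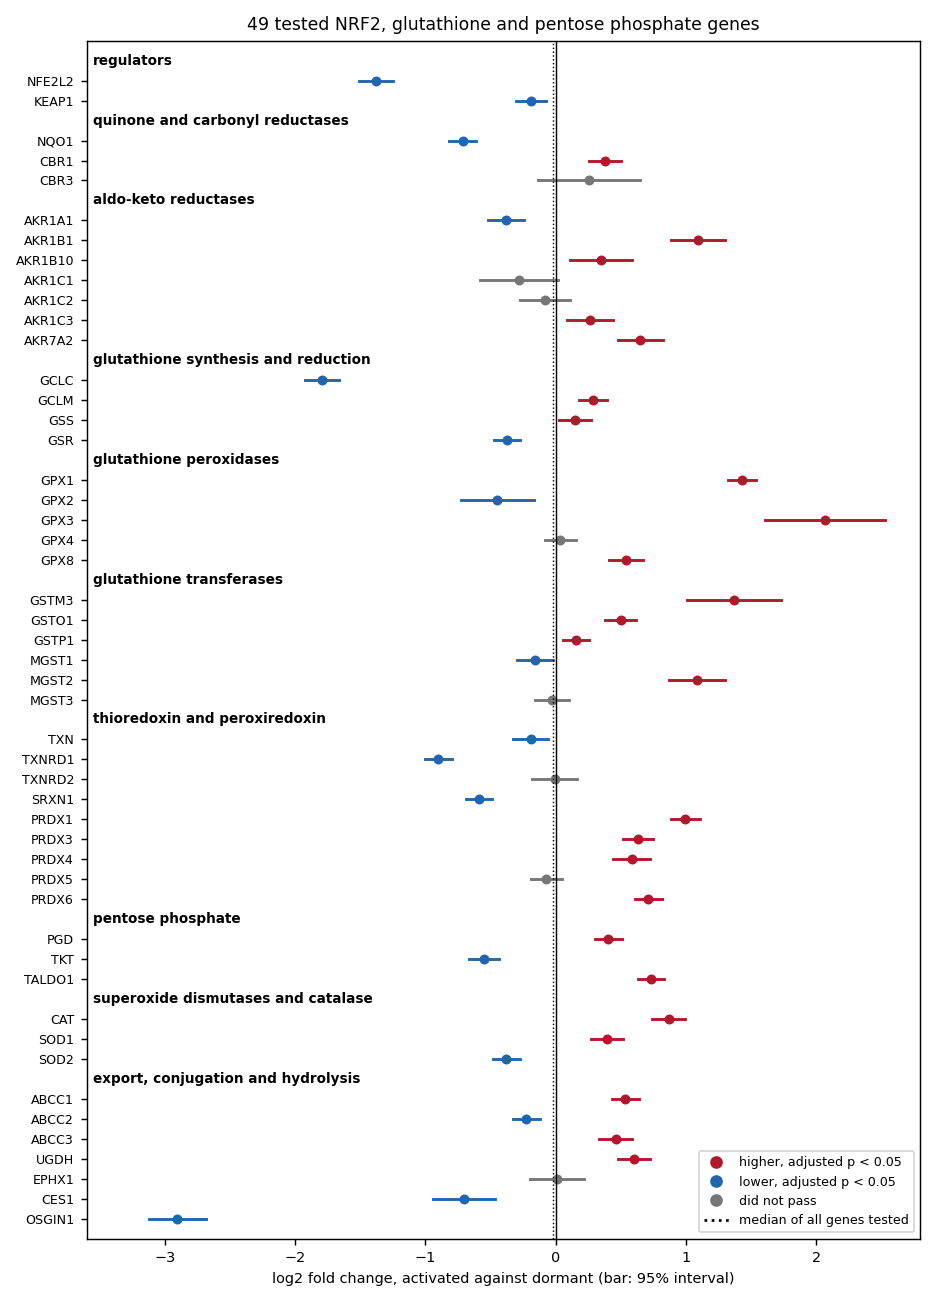
Log2 fold change of each of the 49 tested members, activated against dormant, on the x axis, grouped by role, with bars for the 95% interval and the dotted line at the median of all genes tested (-0.02). OSGIN1, GCLC and NFE2L2 lie farthest to the left, GPX3 and GPX1 farthest to the right, the pair of regulators lies on the left, and every other role holds points on both sides.

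Promoter sequence was examined because the members moved in both directions, also among the 22 that are classical NRF2 targets. RefSeq promoter windows of GRCh38.p14, which run from 250 bases before to 50 bases after the start, were matched to 39 of the 50 members. The antioxidant response element letters TGACNNNGC were searched on both strands, and a match can overlap the AP-1 letters TGACTCA or TGAGTCA. They occurred in 11 of the 39 members (28.2%) and in 17.9% of 15843 coding genes with a window. Among members with a window they were found for 6 of 17 that were higher, 4 of 14 that were lower and 1 of 7 that did not pass. The stretches below are shown since they put matches to the same pattern beside opposite changes. Each is printed on the gene's strand with the 9 matching bases in capitals; in GPX2, GCLM, PGD and CBR1 the match is on the other strand, so the capitals are its reverse complement.
TXNRD1, lower, chr12:104215664-104215704, plus strand: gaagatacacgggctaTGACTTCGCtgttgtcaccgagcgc
GPX2, lower, chr14:64942843-64942883, minus strand: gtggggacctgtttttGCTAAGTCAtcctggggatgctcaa
GCLM, higher, chr1:93909440-93909480, minus strand: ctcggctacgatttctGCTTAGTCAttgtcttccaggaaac
PGD, higher, chr1:10398847-10398887, plus strand: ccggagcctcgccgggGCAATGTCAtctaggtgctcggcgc
CBR1, higher, chr21:36069849-36069889, plus strand: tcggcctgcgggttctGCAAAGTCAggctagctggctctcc
GSTP1, higher, chr11:67583730-67583770, plus strand: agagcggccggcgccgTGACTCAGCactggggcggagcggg
The GSTP1 match also holds the AP-1 letters. The GSTP1 rise turned into a fall with the gene length correction, and the GPX2 fall was lost in DESeq2. KEAP1, which was lower, also held the same 9 matching bases as GCLM and is not shown. TXNRD1 has 2 windows, both with matches, of which 1 is shown. The printed capitals began 99 bases before the start in TXNRD1, 122 in GPX2, 34 in GCLM, 201 in PGD, 159 in CBR1 and 66 in GSTP1. NQO1, GCLC, SRXN1, TKT, TALDO1, AKR1B1 and OSGIN1 had no such letters in their windows, which says nothing of sites farther away.

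Of the regulators, NFE2L2 (chromosome 2, 177230303 to 177264727) stood at 199.8, 188 and 186 CPM, counts scaled to a common library size after TMM normalisation, in dormant libraries and at 80.02, 69.1 and 71.3 CPM in activated libraries. Each activated library was below each dormant library by a wide margin. The change was 2.60-fold (log2 fold change -1.38 ± 0.06 SE, adjusted p = 3.67e-11). KEAP1 (chromosome 19, 10486125 to 10503356) had 83.7, 83.7 and 85.8 CPM in dormant and 76.6, 75.4 and 70.01 CPM in activated libraries. It also fell, by 0.19 on the log2 scale (adjusted p = 0.00524), a much smaller step. The ratio of NFE2L2 to KEAP1 per gene length, taken from FPKM within each library, went from 2.06 to 2.27 in dormant cells to 0.874 to 0.996 in activated cells.

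**Figure D2:**
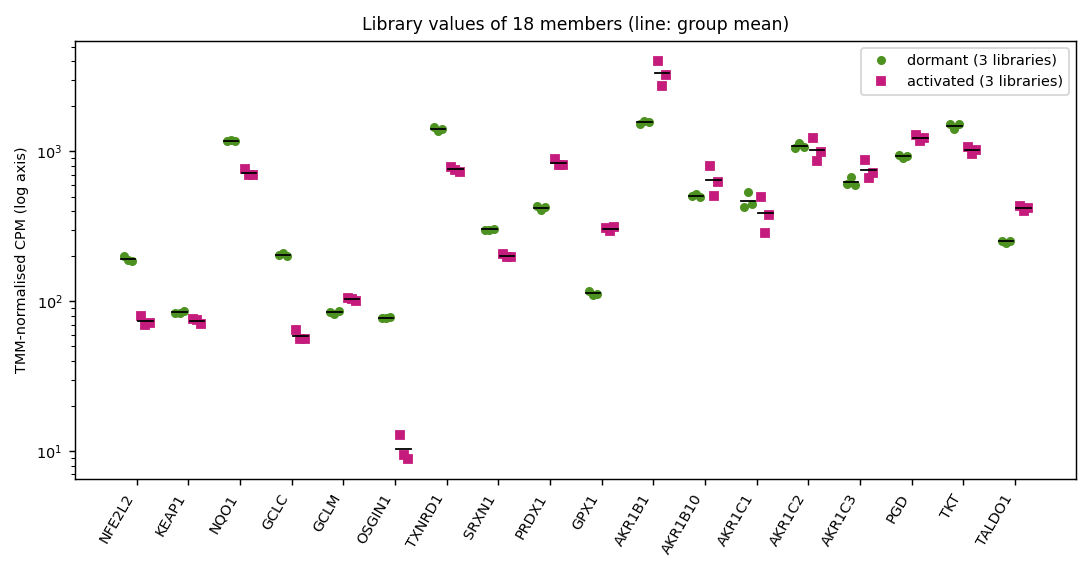
TMM-normalised CPM on a log axis for 18 members, with 1 point per library and a line at each group mean of 3 libraries. The dormant and activated points of GCLC, OSGIN1 and GPX1 are far apart, whereas those of AKR1B10, AKR1C1, AKR1C2 and AKR1C3 intermix.

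NQO1, which reduces quinones with NADH or NADPH (chromosome 16, 69709401 to 69726560), had 1174, 1194 and 1165 CPM in dormant libraries and 758, 699 and 698 CPM in activated libraries. It fell 1.64-fold (log2 fold change -0.71 ± 0.05 SE, adjusted p = 4.77e-09). The carbonyl reductase CBR1 rose 1.30-fold, from 118, 112 and 113 CPM to 154, 138 and 155 CPM. Opposite-strand genes cover 17.7% of the NQO1 and 18.9% of the CBR1 exons in GENCODE 29. CBR3, a close relative with few reads, had 117 to 169 counts per library and did not pass (log2 fold change 0.26, 95% interval -0.14 to 0.65). In GENCODE 29 an antisense gene covers 42.2% of the CBR3 exons, and without known strand the reads of both cannot be told apart.

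Aldo-keto reductases turn aldehydes and ketones into alcohols. AKR1B1, the aldose reductase that makes sorbitol from glucose (chromosome 7, 134442350 to 134459239), had 1531, 1591 and 1569 CPM in dormant libraries and 4034, 2754 and 3219 CPM in activated libraries. All activated libraries were higher, but they spread widely around their mean of 3336 ± 648 CPM (SD, n = 3). The rise was 2.13-fold (log2 fold change 1.09 ± 0.10 SE, adjusted p = 8.96e-08), and 0.94 on the log2 scale without activated replicate 1. AKR7A2, which reduces succinic semialdehyde, rose 1.57-fold and AKR1A1, the general aldehyde reductase, fell 1.30-fold, from 84.7, 76.2 and 76.5 CPM to 62.7, 55.9 and 63.7 CPM.

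The NRF2-dependent aldo-keto reductases of A549 gave a different picture. AKR1B10, a retinal and aldehyde reductase, had 503, 517 and 498 CPM in dormant and 799, 502 and 629 CPM in activated libraries, so the groups overlapped. Its 1.27-fold rise passed (adjusted p = 0.012) but was lost with total counts (adjusted p = 0.109), in DESeq2 (0.0924) and in limma on log2 FPKM (0.368 and 0.215 with pseudocounts of 1 and 0.1). Without activated replicate 1 it was 0.16 on the log2 scale instead of 0.35. AKR1C3, which makes testosterone and prostaglandin F (chromosome 10, 5048781 to 5107686), had 609.7, 670.5 and 596 CPM and then 873, 663 and 716 CPM. Its 1.20-fold rise (adjusted p = 0.00935) was lost with total counts (0.188), with a correction for gene length (0.056) and in limma on log2 FPKM (0.405 and 0.263), and it was 0.14 instead of 0.26 on the log2 scale without activated replicate 1.

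AKR1C1 and AKR1C2 reduce progesterone and dihydrotestosterone. AKR1C1 had 428, 532 and 446 CPM in dormant and 496, 285 and 377 CPM in activated libraries and did not pass (log2 fold change -0.28, 95% interval -0.58 to 0.02). AKR1C2 had 1054, 1137 and 1068 CPM and then 1220, 869.7 and 989 CPM (log2 fold change -0.08, 95% interval -0.27 to 0.11). In both genes activated replicate 1 was the highest and replicate 2 the lowest of its group. With total counts and all libraries both were called lower, at -0.42 (adjusted p = 0.0143) for AKR1C1 and -0.22 (0.0356) for AKR1C2 on the log2 scale. Without activated replicate 1 both were also called lower, at -0.50 (adjusted p = 0.000157) and -0.22 (0.0015). Without the low-count filter, and in limma on log2(FPKM + 0.1), 2 of the 7 aldo-keto reductases were called lower. These were AKR1A1 and 1 of AKR1C1 and AKR1C2. The AKR1C genes are near copies. Of all 50-base stretches in the longest coding transcript of AKR1C2, 50.8% also occurred in AKR1C1 transcripts, so the division of reads between these genes is uncertain. For AKR1B10 11.6% occurred in AKR1B15.

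The AKR group was the most abundant of the 10 roles in activated cells, with a summed level of 2616 to 3795 FPKM against 2078 to 2252 FPKM in dormant cells, and AKR1B1 alone made up 2140 FPKM of it on average. Between activated libraries AKR1B1, AKR1B10, AKR1C1, AKR1C2 and AKR1C3 had coefficients of variation of 14.5% to 27.3%, against a median of 7.15% for all genes tested. In dormant libraries the same 5 genes varied by 1.93% to 11.9%, against a median of 5.67%. AKR1A1 and AKR7A2 did not share the wide spread, with 7.02% and 5.88% in activated and 6.1% and 8% in dormant libraries. GPX2, with 25.9%, OSGIN1, with 20.5%, and EPHX1, with 17.9%, also varied widely in activated cells.

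**Figure D3:**
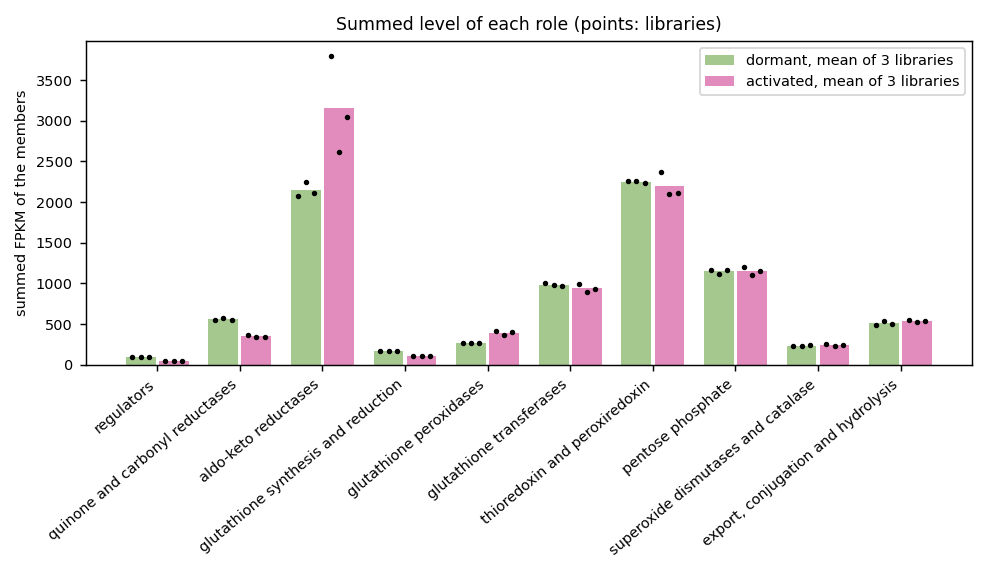
Summed FPKM of the members of each of the 10 roles, with bars for the mean of 3 libraries and points for the libraries. Aldo-keto reductases show the largest gap in FPKM between groups and the widest scatter, from 2616 to 3795 FPKM in activated libraries, while pentose phosphate and thioredoxin sums of both groups overlap.

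Glutathione is made in 2 steps, by glutamate-cysteine ligase and glutathione synthetase. GCLC, the catalytic subunit of the ligase (chromosome 6, 53497341 to 53545101), had 203, 211 and 199.6 CPM in dormant and 64.3, 56.2 and 56.0 CPM in activated libraries. It fell 3.48-fold (log2 fold change -1.80 ± 0.06 SE, adjusted p = 1.98e-12). GCLM, the modifier subunit that raises the activity of the enzyme (chromosome 1, 93885199 to 93909430), went the other way, from 84.4, 82.1 and 86.7 CPM to 105, 104 and 100.2 CPM. Its rise was 1.22-fold (adjusted p = 0.000124). Per gene length, GCLC exceeded GCLM 4.27 to 4.77 times in dormant libraries and 1.01 to 1.14 times in activated libraries.

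GSS, the synthetase, had 70.8, 62.9 and 65.6 CPM and then 73.1, 74.3 and 73.8 CPM. Its 1.11-fold rise (adjusted p = 0.0274) was lost with total counts (adjusted p = 0.87), with upper-quartile factors (0.0626), in limma on log2 FPKM (0.835 and 0.84) and without dormant replicate 2 (0.119), dormant replicate 3 (0.0798) or activated replicate 3 (0.0643). GSR, which returns oxidised glutathione to its reduced form, fell from 196, 202 and 202 CPM to 155, 154 and 154 CPM, a 1.30-fold change.

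Glutathione peroxidases remove peroxides at the cost of glutathione. GPX1, the main cytosolic form (chromosome 3, 49357176 to 49358353), had 118, 109.6 and 112 CPM in dormant and 306, 294 and 311 CPM in activated libraries, with tight groups far apart. It rose 2.69-fold (log2 fold change 1.43 ± 0.05 SE, adjusted p = 3.20e-12), though 20.3% of its 50-base stretches are shared with the pseudogene GPX1P1. The secreted form GPX3 rose 4.20-fold from a low level, from counts of 58, 48 and 46 to 178, 228 and 175. On the log2(FPKM + 1) scale, which compresses low levels, the GPX3 change was 1.21 instead of 2.07. GPX8, a peroxidase of the endoplasmic reticulum, rose 1.46-fold.

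GPX4, which reduces lipid peroxides and guards against ferroptosis, had 106, 103 and 108 CPM in dormant and 116, 103 and 106 CPM in activated libraries. It did not pass (log2 fold change 0.04, 95% interval -0.08 to 0.16). GPX2, an NRF2 target of epithelia, had 50.1, 54.0 and 47.3 CPM and then 46.3, 27.1 and 37.5 CPM. It fell 1.36-fold (adjusted p = 0.00682), a call lost in DESeq2 (0.0722), and the highest activated library came close to the lowest dormant library. Without activated replicate 2 the GPX2 change was -0.26 instead of -0.45 on the log2 scale, and without activated replicate 1 it was -0.64. The ratio of GPX1 to GPX4 per gene length was 1.01 to 1.08 in dormant and 2.58 to 2.88 in activated libraries.

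Glutathione transferases couple glutathione to electrophiles. Of 6 members, 4 rose, 1 fell and 1 did not pass, where 36.5% of all genes were higher and 37.2% lower. With total counts 3 were higher and 2 lower, and with the gene length correction 3 and 3. GSTM3 had 3.07, 2.52 and 2.8 CPM in dormant and 7.31, 6.71 and 7.65 CPM in activated libraries, a 2.58-fold rise, or 0.64 instead of 1.37 on the log2(FPKM + 1) scale. The membrane-bound MGST2, which also makes leukotriene C, rose 2.12-fold, from 11.4, 12.7 and 9.87 CPM to 23.8, 25.1 and 23.3 CPM. GSTO1, of the omega class, rose 1.42-fold.

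The 3 most abundant transferases in this line changed little. GSTP1 had 343, 319 and 329 CPM and then 374, 361 and 369.5 CPM, a 1.11-fold rise (adjusted p = 0.00822). That rise was lost with total counts (0.757) and in both limma fits on log2 FPKM. It turned into a fall with the gene length correction (log2 fold change -0.12, adjusted p = 0.019). MGST1 had 581, 588 and 559 CPM and then 571, 459.7 and 517 CPM, a 1.12-fold fall (adjusted p = 0.0414). That call was lost with DESeq2 size factors (0.0554) and in 5 of the 6 fits that left out 1 library, the exception being activated replicate 1. Without activated replicate 2 the MGST1 change was -0.08 instead of -0.16 on the log2 scale, and without activated replicate 1 it was -0.23. MGST3, at 114, 111 and 108 CPM and then 119, 102 and 107 CPM, did not pass (log2 fold change -0.03, 95% interval -0.16 to 0.10), but was called lower with total counts (-0.17, adjusted p = 0.0198), with the gene length correction (-0.35, adjusted p = 3.81e-06) and in both limma fits on log2 FPKM (0.0483 and 0.0194).

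In the thioredoxin system the reductase and the repair enzyme fell, while 4 of the 5 tested peroxiredoxins rose. Of all genes tested, 36.5% were higher and 37.2% lower. TXNRD1, the cytosolic reductase that passes electrons from NADPH to thioredoxin (chromosome 12, 104215779 to 104350307), had 1460, 1368 and 1417 CPM in dormant and 789, 752 and 734 CPM in activated libraries. It fell 1.87-fold (log2 fold change -0.90 ± 0.05 SE, adjusted p = 3.45e-10). SRXN1, which restores overoxidised peroxiredoxins, fell 1.51-fold, from 301, 299.5 and 304 CPM to 206, 197 and 197 CPM. In GENCODE 29 the gene AL121758.1 covers 85.0% of the SRXN1 exons on the same strand, so its share of reads is uncertain. Thioredoxin itself, TXN, fell by 0.19 on the log2 scale (adjusted p = 0.0126), from 512, 531 and 506 CPM to 502, 416 and 438 CPM. This call was lost without dormant replicate 2 (adjusted p = 0.0511), activated replicate 2 (0.0522) or activated replicate 3 (0.0725). TXNRD2, the mitochondrial reductase, did not pass (log2 fold change -0.01, 95% interval -0.18 to 0.17).

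PRDX1, the main cytosolic peroxiredoxin (chromosome 1, 45511051 to 45522890), had 430, 408 and 427 CPM in dormant and 895, 814 and 813 CPM in activated libraries. It rose 1.99-fold (log2 fold change 0.995 ± 0.05 SE, adjusted p = 2.35e-10). An opposite-strand gene, MMACHC, covers part of its exons (24.9%). PRDX6, which works with glutathione, rose 1.64-fold, PRDX3, the mitochondrial form, 1.55-fold, and PRDX4, of the endoplasmic reticulum, 1.498-fold. PRDX5, at 334, 314 and 322 CPM and then 332, 296 and 295 CPM, did not pass (log2 fold change -0.07, 95% interval -0.19 to 0.05), but was called lower with total counts (-0.21, adjusted p = 0.00233), with the gene length correction (-0.30, adjusted p = 8.91e-06), in both limma fits on log2 FPKM (0.0147 and 0.0039) and without activated replicate 1 (-0.13, adjusted p = 0.0202). PRDX2 had 1, 5 and 3 counts in dormant and 5, 9 and 7 counts in activated libraries and was too low to be tested, the only such member. It shared 4.6% of its 50-base stretches with other genes, and why so few reads were assigned to it was not tested.

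The ratio of TXNRD1 to PRDX1 per gene length was 1.08 to 1.10 in dormant and 0.286 to 0.3 in activated libraries, and that of SRXN1 to PRDX1 was 0.354 to 0.371 and 0.116 to 0.123. Such ratios within a library do not depend on the scaling between libraries. The pairs were picked after their values were seen and are a description only.

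**Figure D4:**
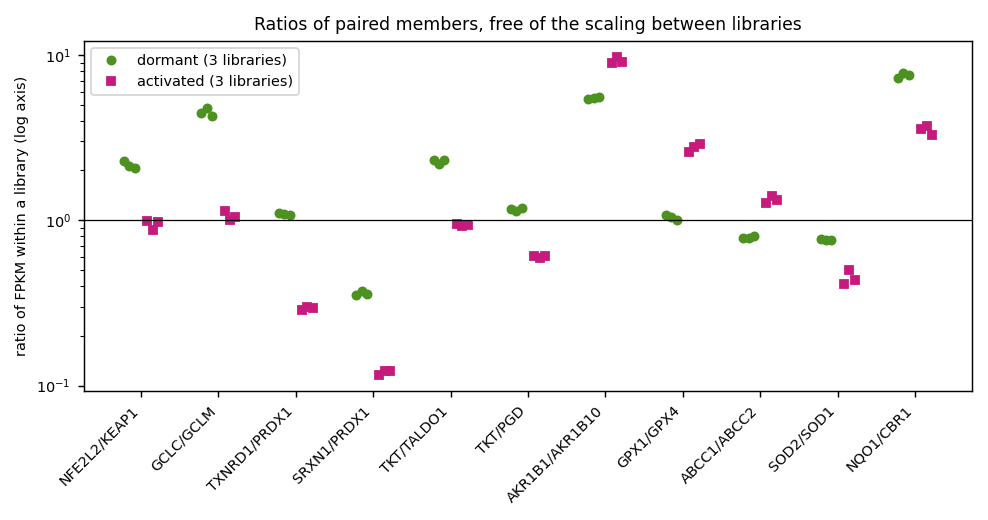
Ratio of FPKM of 2 members within each library on a log axis, for 11 pairs, with 1 point per library. GCLC/GCLM fell from 4.27 to 4.77 in dormant libraries to 1.01 to 1.14 in activated libraries and TXNRD1/PRDX1 from 1.08 to 1.10 to 0.286 to 0.3, while GPX1/GPX4 and AKR1B1/AKR1B10 moved up.

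The pentose phosphate pathway has an oxidative arm that yields NADPH and a non-oxidative arm that recycles sugars. PGD, which forms NADPH in the oxidative arm (chromosome 1, 10399064 to 10420511), rose from 949.8, 899.7 and 933 CPM to 1281, 1177 and 1225 CPM, a 1.32-fold change (log2 fold change 0.40 ± 0.05 SE, adjusted p = 2.55e-06). In the non-oxidative arm the partners split. TALDO1, transaldolase, rose 1.66-fold, from 253, 247 and 254 CPM to 429.9, 401 and 419.6 CPM (adjusted p = 2.66e-09). TKT, transketolase, fell 1.47-fold, from 1535, 1412 and 1519 CPM to 1066, 958 and 1021 CPM (adjusted p = 2.25e-07). The ratio of TKT to TALDO1 per gene length went from 2.20 to 2.33 to 0.918 to 0.952.

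Of 10 tested further genes of this pathway, 5 were higher, 2 lower and 3 did not pass, where 36.5% of all genes were higher and 37.2% lower. PRPS2, which makes the ribose donor of nucleotide synthesis, rose most, 2.04-fold. RPIA, the ribose isomerase, fell 1.38-fold.

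Superoxide dismutases turn superoxide into hydrogen peroxide, which catalase removes. CAT had 39.7, 41.4 and 43.5 CPM in dormant and 79.4, 71.8 and 75.9 CPM in activated libraries, a 1.82-fold rise (adjusted p = 6.33e-09). The cytosolic SOD1 rose 1.31-fold. The mitochondrial SOD2 had 1598, 1521 and 1580 CPM and then 1183, 1260 and 1171 CPM and fell 1.30-fold (adjusted p = 4.27e-06). Per gene length, SOD2 stood at 0.759 to 0.768 of SOD1 in dormant and 0.409 to 0.503 of it in activated libraries. The FPKM values divide by a gene length of 17592 bases for SOD2 and 895 bases for SOD1. In CPM SOD2 was far above SOD1, with means of 1567 against 104.6 in dormant and 1205 against 137.1 in activated libraries.

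Among the export, conjugation and hydrolysis genes, OSGIN1, an oxidative stress-induced growth inhibitor and NRF2 target (chromosome 16, 83953240 to 83966332), showed the largest fall of all members. It had 76.8, 76.8 and 78.5 CPM in dormant and 12.7, 9.39 and 8.84 CPM in activated libraries. The change was 7.49-fold (log2 fold change -2.90 ± 0.10 SE, adjusted p = 2.91e-12), and 174 of the 13336 tested genes fell further. CES1, a carboxylesterase, fell 1.63-fold, with 31.1% of its 50-base stretches shared with the pseudogene CES1P1. The exporter ABCC2 fell 1.17-fold, from 497, 525 and 517 CPM to 444, 425 and 449 CPM (adjusted p = 0.000572), a call lost with the gene length correction (0.0597).

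The exporters ABCC1 and ABCC3 rose 1.45-fold and 1.38-fold. UGDH, which supplies glucuronic acid for conjugation, rose most of this role, from 325, 326 and 313 CPM to 529, 449.8 and 483 CPM, a 1.52-fold change. EPHX1, the microsomal epoxide hydrolase, had 147, 171 and 158 CPM and then 189.6, 133 and 156 CPM, with the activated libraries both above and below the dormant ones (log2 fold change 0.01, 95% interval -0.20 to 0.21). The ratio of ABCC1 to ABCC2 per gene length was 0.785 to 0.799 in dormant and 1.27 to 1.41 in activated libraries.

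Compared per gene length, AKR1B1 was the most abundant member in both states, at 1105 ± 31.7 FPKM (SD, n = 3) in dormant and 2140 ± 414 FPKM in activated cells. In dormant cells TXN (735 FPKM), TKT (500.4 FPKM), NQO1 (490.2 FPKM) and GSTP1 (468 FPKM) came next, and TKT, NQO1 and GSTP1 lay close to each other, TKT and NQO1 within their spread. In activated cells PRDX1 (627 FPKM), TXN (584 FPKM), PGD (516 FPKM) and GSTP1 (473 FPKM) followed, and PRDX1 and TXN lay within their spread. NQO1 went from place 4 to place 10 of the 50 members and TXNRD1 from 8 to 15, while PRDX1 went from 9 to 2 and GPX1 from 21 to 12. The order depends on gene length. SOD2, a long gene, took place 25 in dormant cells, although its mean of 1567 CPM there was close to the 1564 CPM of AKR1B1.

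The 22 members that are classical NRF2 targets held 9 that were higher, 9 that were lower and 4 that did not pass, with a median log2 fold change of -0.04. These shares were 40.9% in each direction, against 36.5% and 37.2% of all genes. The even split did not hold in all settings, since 9 were higher and 11 lower without activated replicate 1, and 7 and 11 with total counts, with a median of -0.18 in both. With total counts 3941 of all 13336 genes were higher and 5998 lower, with a median of -0.16. Without activated replicate 1, 4836 of all 13555 genes were higher and 4920 lower, with a median of -0.02. Of 25 tested further NRF2 targets, 7 were higher and 12 lower. HMOX1, the heme oxygenase, fell 3.39-fold, from 423, 394 and 409 CPM to 125, 115 and 122 CPM. NR0B1, a nuclear receptor, fell most, 7.52-fold. SLC7A11, which imports cystine for glutathione, went from 202, 201 and 212 CPM to 141, 199 and 167 CPM, a 1.21-fold fall (adjusted p = 0.012). ME1, the NADPH-forming malic enzyme, fell 1.28-fold. UGT1A6 showed the largest rise, from counts of 9, 13 and 3 to 12, 26 and 29, and shares exons with its gene cluster, so it is uncertain. Only in the activated group did all its libraries reach the low-count filter, so a fall could not have been called.

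NRF2 binds DNA with a small MAF protein and is opposed by BACH1. Of 12 genes for these partners, for NRF2 relatives and for NRF2 turnover, 4 were higher and 8 lower. Over all genes tested the shares were 36.5% higher and 37.2% lower. The small MAF genes fell together, MAFF 7.08-fold, MAFG 2.43-fold and MAFK 2.30-fold. BACH2 had 50, 53 and 65 counts in dormant and 1, 2 and 1 counts in activated libraries. BACH2 reached the low-count filter in dormant libraries only, so no other direction could have been called. NFE2L3, a relative of NFE2L2, rose most, 2.69-fold.

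Of 18 tested further glutathione genes, 8 were higher and 5 lower, where 36.5% of all genes were higher and 37.2% lower. CHAC1, which degrades glutathione, fell 8.53-fold, and GGCT, which acts on its breakdown products, rose 2.01-fold. Of 14 tested further thioredoxin-related genes, 6 were higher and 4 lower. TXNIP, the thioredoxin inhibitor, went from 91.4, 121 and 101 CPM to 0.409, 0.749 and 0.183 CPM and fell most. SESN3 rose most, 3.30-fold, from a low level.

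Epithelial keratins were abundant in all libraries, KRT7 at 1811 to 2312 CPM and KRT8 at 1591 to 3629 CPM. Of 6 epithelial markers KRT8, KRT18 and CDH1 were higher in activated cells (2.07-fold, 1.91-fold and 2.37-fold), KRT7 and EPCAM were lower, and KRT19 did not pass. EPCAM had only 14 to 65 counts per library. Of 12 myeloid markers, 5 could be tested and all 5 were higher in activated cells, 4 of them with total counts. Over all genes tested 36.5% were higher and 37.2% lower. The summed level of the 12 myeloid markers was 136 to 148 CPM in dormant and 166 to 174 CPM in activated libraries. Nearly all of it was CD68, which rose 1.13-fold. The others were low but changed more. CD14 went from 41, 58 and 25 counts to 303, 316 and 321, LAPTM5 from 9, 7 and 9 to 63, 78 and 73, CSF1R from 6, 4 and 0 to 29, 29 and 21, and ITGAM rose 1.73-fold. LAPTM5 and CSF1R reached the low-count filter in activated libraries only, so no other direction could have been called for them. The markers AIF1, TYROBP, C1QA and C1QB were at 0 counts throughout. LYZ, SPI1 and PTPRC were too low to be tested. LYZ had 3, 11 and 6 counts in dormant and 4, 3 and 4 in activated libraries. SPI1 had 11, 0 and 0 and then 1, 5 and 1, and PTPRC 0, 0 and 1 and then 0, 0 and 5. Of 10 osteoclast markers, 7 could be tested, 1 was higher and 4 lower, with sums of 53.2 to 54.9 CPM and 22.9 to 24.8 CPM. MMP9, which was higher, reached the low-count filter in activated libraries only. ACP5 and ATP6V0D2, which were lower, reached it in dormant libraries only. For MMP9, ACP5 and ATP6V0D2 no other direction could therefore have been called. DCSTAMP, OCSTAMP and CALCR were at 0 counts. The share of such markers in the members' changes was not tested.

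**Figure D5:**
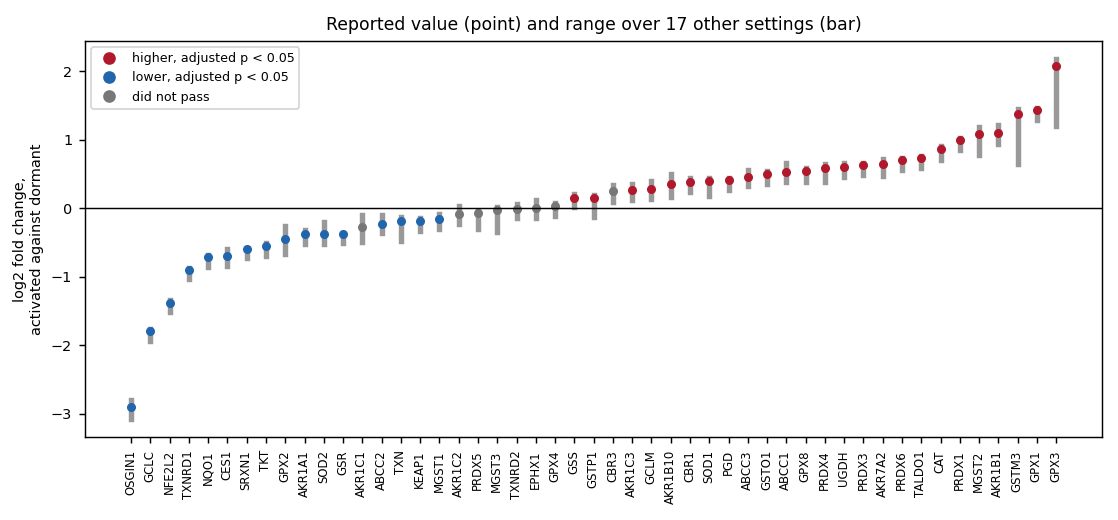
Log2 fold change of the 49 tested members in ascending order, with the reported value as a point and the range over 17 other settings as a bar. The bars of OSGIN1, GCLC, NFE2L2 and TXNRD1 stay below 0 and those of GPX3, GPX1, AKR1B1 and PRDX1 above it, whereas those of AKR1C2, GPX4, EPHX1, TXNRD2, MGST3 and GSTP1 cross it.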

How the data were processed

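TRIzol-extracted total RNA was prepared with the VAHTS Universal V6 kit, per the labels' protocols. The authors deposited whole-number counts per gene symbol and, in a separate table, FPKM values. Count divided by FPKM followed the library totals within a relative deviation of 1.41e-09 for genes with at least 100 counts, so the FPKM deposited by the authors are these counts per gene length and per library total. Tools named are fastp, HISAT2 and HTSeq with build GRCh38, per the submitters' processing notes. Versions, annotation and strand setting were not given in the sources used here.

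All genes were fitted with edgeR 4.0.16 (R 4.3.3, quasi-likelihood test, TMM factors, filterByExpr by group, Benjamini-Hochberg over 13336 genes, threshold 0.05). Standard errors are the log2 fold change over the square root of F, and 95% intervals use the t quantile of the fit. The fits were also run on simulated counts in which few genes changed, evenly in both directions. That run cannot test the scaling between libraries here, where 73.7% of all genes were called. Members and lists were chosen with earlier results of these data known. Library values are printed for NFE2L2, KEAP1 and NQO1, the largest rise and fall of each role, members whose call depends on a setting, and some further members; in other lists the largest rise and fall and SLC7A11, HMOX1, ME1 and TXNIP are named, another gene of that rule is not reported here, and MAFF, MAFG and MAFK were added after their values were seen. Sequence overlap used GENCODE 29 (GRCh38), in which exon overlap could be read for 49 members, and coordinates are 1-based from RefSeq GRCh38.p14. Alternatives were DESeq2 1.42.0, limma 3.58.1 (voom, and log2 FPKM with a pseudocount of 1 or 0.1, the latter with a mean FPKM of at least 0.5), other scalings and filters, a replicate block, a loess correction for gene length (span 0.3) and leaving out each library. Depth was similar in all libraries, and precision is limited for genes with few counts.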

Additional observations from a re-analysis of the deposited data

How the results depend on the processing

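Of 49 tested members, 34 had the same direction and the same call in all 17 settings, among them 33 of the 41 called. Over these settings 21 to 25 members were higher and 14 to 20 lower, and 9109 to 10009 genes were called in all. The share of higher calls over all genes, 49.5%, was 39.7% with total counts and 39.4% with unfiltered log2(FPKM + 1) in limma. Of 833 member values, 29 lost and 15 gained a call and 21 changed sign, by causes that were not tested. The sign changes were small. For EPHX1 the log2 fold change became -0.13 with total counts, -0.020 with upper-quartile factors, -0.0064 in limma voom, -0.0051 with the replicate block, -0.10 with the gene length correction, -0.14 and -0.15 on log2 FPKM with a pseudocount of 1 and 0.1, -0.040 without dormant replicate 1 and -0.13 without activated replicate 1. For GPX4 it became -0.10 with total counts, -0.11 with the length correction (adjusted p = 0.0463), -0.10 and -0.11 on both log2 FPKM scales and -0.014 without activated replicate 1. For TXNRD2 it became 0.0021 with DESeq2 size factors, 0.0034 in DESeq2, 0.061 without dormant replicate 1 and 0.030 without activated replicate 2. Leaving out 1 library at a time gave -0.222 to 0.027 for AKR1C2, -0.0144 to 0.0747 for GPX4, -0.0923 to 0.0228 for MGST3, -0.0443 to 0.0607 for TXNRD2 and -0.134 to 0.125 for EPHX1, and the positive values of AKR1C2 and MGST3 were those without activated replicate 2. GSTP1, at -0.12 with the length correction, was the only member called in both directions. Total counts also moved calls that stayed, to 0.24 for CBR1, 0.15 for GCLM, 0.27 for PGD, 0.25 for SOD1, -0.33 for KEAP1 and TXN, -0.30 for MGST1 and -0.36 for ABCC2. The length correction moved PRDX4 to 0.38, SOD1 to 0.17, SOD2 to -0.20, MGST1 to -0.27 and TXN to -0.48.

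With the replicate number as a block, 25 members were higher and 16 lower, and 9789 genes were called. Same-numbered libraries deviated from their group means with correlations of 0.00229, 0.0177 and 0.00333. The numbers were therefore not treated as pairing, and not every library correlated best with its own number. Few counts limit the precision for PRDX2, BACH2 and UGT1A6.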
